A study of Mus musculus with 15 samples.

Results

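RNA of NIH3T3 cells, a mouse fibroblast line, was compared between cycloheximide given together with platelet-derived growth factor (PDGF) and PDGF given alone, by setting 3 libraries from cells treated with cycloheximide and PDGF against 3 libraries from cells treated with PDGF. These 6 of the 15 libraries of the series were chosen by their sample titles. Both groups carry a doxycycline-inducible H2A-mCherry fusion in a stable line, the control for a second line in which H2A is fused to TerminaTOR, an inhibitor of the growth kinase complex mTORC1 in the nucleus, and both were starved before stimulation. Of the other groups, H2A-mCherry cells without PDGF (3 libraries) and H2A-TerminaTOR cells with cycloheximide and PDGF (3 libraries) are given as context, and H2A-mCherry cells with rapamycin and PDGF entered the fit only. The sources used here give no dose, no time and no length of starvation. Nor do the labels say whether replicates are separate cultures, and every p-value therefore measures how far these samples spread, part of which may be technical.

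Cycloheximide blocks elongation by the ribosome and so stops protein synthesis. PDGF signals through receptor tyrosine kinases to the MAP kinase, serum response factor and PI3 kinase pathways, and within minutes starts transcription of immediate early genes, which needs no new protein. Many proteins made from these first transcripts, among them transcriptional repressors, phosphatases and RNA-binding proteins, shut the response down, and transcripts of later genes depend on transcription factors that must first be translated. A gene that answers PDGF in the presence of cycloheximide is by convention called a primary response gene.

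The cycloheximide and PDGF libraries held 5302795, 4343791 and 5579478 reads, and the PDGF libraries 3579179, 3875359 and 4721169. Counts were deposited per transcript and summed per gene, and 10603 genes had enough reads to be tested. Levels are CPM as edgeR gives them after TMM scaling, which sets libraries of different size and makeup on 1 scale, errors are SDs over n = 3 libraries, and changes are log2 of the cycloheximide and PDGF level over the PDGF level with their standard errors (SE). A gene is called at a Benjamini-Hochberg adjusted p under 0.05 in edgeR's quasi-likelihood test. Levels are not scaled by length, so they are compared between groups and not between genes. HTSeq by default counts a read only where it falls to a single feature, these sources do not give the setting used, and for many genes most counted reads lie on transcripts annotated as retained introns. The share of a gene's reads on protein-coding transcripts is therefore given where it is low.

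Fibroblast identity was checked first. Of 12 fibroblast markers, 11 were tested, and their summed level was 8533, 8909 and 8638 CPM in the cycloheximide and PDGF libraries and 8345, 8484 and 8700.2 CPM in the PDGF libraries. The collagen genes *Col1a1* and *Col1a2* made up most of that sum, and single markers did change. Of the 11, 2 were called higher: *Vim*, which encodes vimentin (1.37, on 0.0421% protein-coding reads), and *Col1a1* (0.20). The call of *Col1a1* was lost under scaling by library size and on protein-coding transcripts alone. Called lower were 4, among them *Fn1* for fibronectin (-1.25, on 27.2% protein-coding reads), *Dcn* for decorin (-1.82, not called on protein-coding transcripts alone) and *Thy1* (-0.50). The remaining one was the PDGF receptor gene *Pdgfra*, at 3.15 ± 0.836 CPM with cycloheximide and 10.7 ± 2.35 CPM without it (-1.74, on 89.3% protein-coding reads). Macrophage markers summed to 19.4 to 26.7 CPM with cycloheximide and 16.0 to 20.1 CPM without it, and endothelial, epithelial and muscle markers each stayed under 5 CPM in all 6 libraries. The adipocyte list summed to 9.10 to 14.4 CPM with cycloheximide and 39.8 to 51.0 CPM with PDGF alone, of which the preadipocyte gene *Dlk1* made up 1.03 ± 0.568 CPM with cycloheximide and 36.9 ± 3.97 CPM without it, and the only other tested member was not called. Mitochondrially encoded genes took 6.64%, 6.27% and 6.62% of counts in the cycloheximide and PDGF libraries, against 8.69%, 9.29% and 9.11% in the PDGF libraries. The part of these shifts in the results below was not tested.

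Cycloheximide changed a large part of the measured RNA. Of the 10603 genes, 4310 (40.6%) were called, 2231 higher (21.0%) and 2079 lower (19.6%) with cycloheximide. A change of at least 2-fold was called for 1000 genes higher (9.43%) and 971 lower (9.16%). Counted on protein-coding transcripts alone, 580 genes rose and 386 fell by that much, and among genes with most of their reads on protein-coding transcripts, an alternative chosen after seeing the data, 638 rose and 307 fell. The 3 libraries of each group did not overlap in level for 5364 genes (50.6%), 26.1% higher and 24.5% lower with cycloheximide. The median log2 change over all tested genes was 0.01. Under scaling by library size alone the median moved by -0.14 to -0.13, and the split of calls became 1713 higher and 2677 lower (39.0% of calls higher, against 51.8% with TMM). Changes are relative levels in bulk RNA, so fewer cells and less RNA per cell cannot be told apart. For each list below, the percent of tested members called is given after the count and stands against the 21.0% higher and 19.6% lower of all tested genes. The strip plot of changes by gene list lays out the lists described here.

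**Figure D1:**
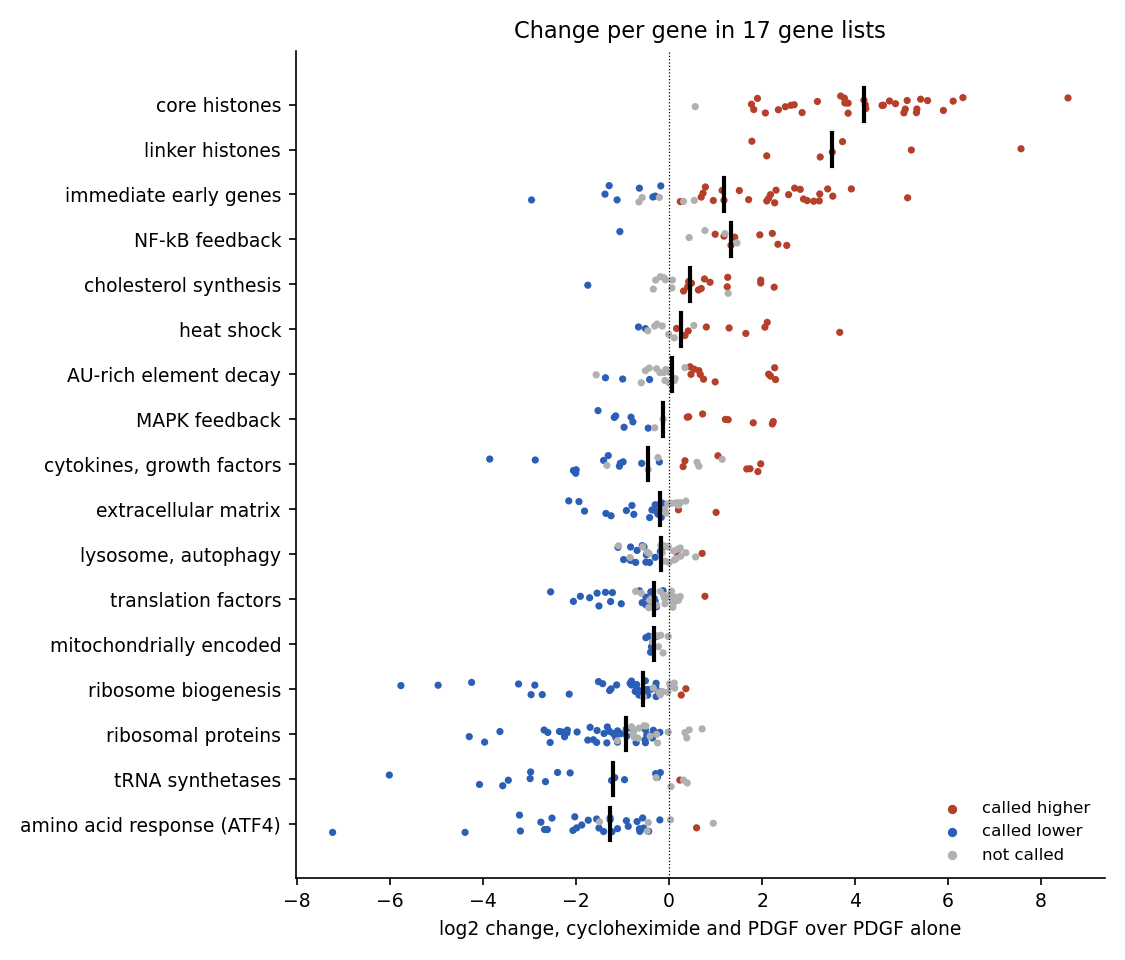
Log2 change of each tested gene (points) in 17 gene lists, cycloheximide and PDGF over PDGF alone; the vertical bar in each row is the list's median, and colour gives the call at an adjusted p under 0.05 (edgeR). Points of genes with no read in a group depend on the fit's prior count. Core histones (median 4.19) and amino acid response genes (median -1.27) stand at opposite ends.

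Many immediate early genes rose, and several of them became very abundant. *Fos* and *Jun* encode the subunits of the AP-1 transcription factor. *Fos* (chr12:85473890-85477273, + strand; coordinates here and below are GRCm38) had 5382, 4694 and 4501 CPM in the cycloheximide and PDGF libraries, against 146, 134 and 138 CPM in the PDGF libraries. Its lowest cycloheximide library stood far above its highest PDGF library, and the log2 change was 5.13 ± 0.10 (edgeR adjusted p = 1.18e-19), 34.9-fold. *Jun* (chr4:95049034-95052222, - strand), an intronless gene, had 62224, 63999 and 60013 CPM in the cycloheximide and PDGF libraries, against 6396, 6932 and 6479.6 CPM in the PDGF libraries. Its log2 change was 3.23 ± 0.10 (edgeR adjusted p = 2.42e-11), and the groups lay far apart. *Ier2*, which encodes a small nuclear protein, had 20524, 19759 and 18533 CPM in the cycloheximide and PDGF libraries, against 1345, 1288 and 1257 CPM in the PDGF libraries, a log2 change of 3.92 ± 0.11 (edgeR adjusted p = 1.03e-12). In cells without PDGF the same genes were low, with 5.73 ± 1.36 CPM for *Fos*, 239 ± 42.3 CPM for *Jun* and 130.2 ± 21.8 CPM for *Ier2*.

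Over the list of 50 immediate early genes, 39 were tested, and 26 rose (66.7%, against 21.0% of all tested genes) and 8 fell (20.5%, against 19.6%). The median log2 change of the 39 was 1.18. Summed over the list, the level was 164170.0, 161105 and 151095 CPM in the cycloheximide and PDGF libraries, 27424, 28698 and 27667 CPM in the PDGF libraries and 4677, 4674 and 4039 CPM in the libraries without PDGF. Every cycloheximide library lay above every PDGF library, and those above every library without PDGF. *Jun* made up a large part of the sum with cycloheximide, so the order of the sums does not hold for each member.

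The Krüppel-like zinc finger factors *Klf2* and *Klf6* had the smallest adjusted p-values of the list. *Klf2* (chr8:72319033-72321656, + strand) had 1079.8, 1074 and 968 CPM in the cycloheximide and PDGF libraries, against 80.7, 99.8 and 91.8 CPM in the PDGF libraries, a log2 change of 3.52 ± 0.08 (edgeR adjusted p = 1.22e-49). *Klf6* had 8184, 7673 and 7315 CPM in the cycloheximide and PDGF libraries, against 1535, 1606 and 1562 CPM in the PDGF libraries, a change of 2.30 ± 0.06 (edgeR adjusted p = 2.12e-37). Neither gene's groups overlapped. *Jund*, the AP-1 subunit that resting cells already make, averaged 1401 ± 88.2 CPM with cycloheximide and 179 ± 23.6 CPM without it (log2 change 2.97 ± 0.08; edgeR adjusted p = 1.22e-34). *Tiparp*, a mono-ADP-ribosyltransferase, averaged 1424 ± 50.1 CPM with cycloheximide and 241 ± 23.5 CPM without it (2.57 ± 0.07; edgeR adjusted p = 7.54e-33), and *Egr3*, a zinc finger factor of the early growth response family, 192 ± 18.1 CPM with cycloheximide and 42.2 ± 1.94 CPM without it (2.18 ± 0.11; edgeR adjusted p = 2.45e-26). *Egr1* itself rested on few reads, with 10.5 ± 1.68 CPM with cycloheximide and 1.49 ± 0.526 CPM without it, and rose by 2.82 on the log2 scale (edgeR adjusted p = 3.35e-07).

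The list did not move as one. *Snai2*, the zinc finger repressor Slug, fell to 66.6, 72.1 and 66.3 CPM in the cycloheximide and PDGF libraries, against 148, 160.0 and 138 CPM in the PDGF libraries, a log2 change of -1.12 ± 0.10 (edgeR adjusted p = 9.1e-16). *Bhlhe40*, a basic helix-loop-helix repressor of the circadian clock, fell to 162, 239.5 and 212 CPM, against 483, 536 and 481 CPM with PDGF alone (-1.29 ± 0.11; edgeR adjusted p = 8.16e-09). In both genes every cycloheximide library lay below every PDGF library. The other genes called lower were *Sgk1* (-2.96), *Nr4a2* (-1.38), *Cebpb* (-0.64), *Klf4* (-0.35), *Snai1* (-0.30) and *Plk2* (-0.18, not called without cycloheximide replicate 3), of which *Nr4a2* had 0% of its reads on protein-coding transcripts. *Myc*, the growth-promoting transcription factor, averaged 4.01 ± 1.07 CPM with cycloheximide and 6.29 ± 0.447 CPM without it and was not called (-0.65; edgeR adjusted p = 0.188).

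**Figure D2:**
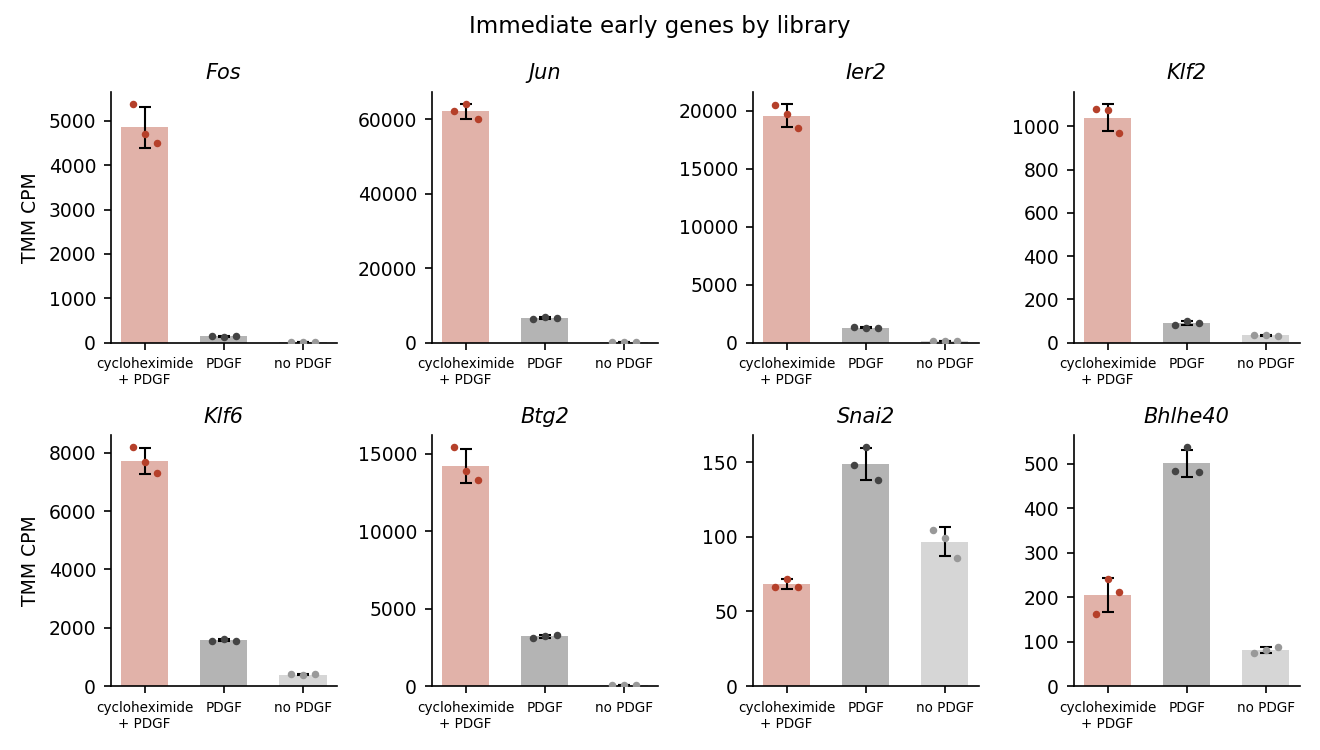
TMM CPM of 8 immediate early genes in each library (points; bars are means and whiskers SDs, n = 3) for cycloheximide and PDGF, PDGF alone and no PDGF; each panel has its own axis from 0. The first 6 genes were highest with cycloheximide and PDGF, and *Snai2* and *Bhlhe40* were highest with PDGF alone.

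Serum response factor binds the CArG box, a 10-base site with CC and GG around 6 A or T bases, and many immediate early promoters carry it. RefSeq promoter windows (GRCm38.p6, 250 bases before to 50 after the start) were at hand for 28 of the 39 tested genes, and 4 held a CArG box on either strand (14.3%), against 1.58% of 6896 tested genes with a window and 1.63% of all 32851 windows. A match is a description of the letters and not of binding. The windows of *Zfp36*, which encodes the RNA-binding protein tristetraprolin, and of *Srf*, which encodes serum response factor itself, are shown with the CArG boxes in capitals.
Zfp36 (chr7:28379179-28379478, - strand): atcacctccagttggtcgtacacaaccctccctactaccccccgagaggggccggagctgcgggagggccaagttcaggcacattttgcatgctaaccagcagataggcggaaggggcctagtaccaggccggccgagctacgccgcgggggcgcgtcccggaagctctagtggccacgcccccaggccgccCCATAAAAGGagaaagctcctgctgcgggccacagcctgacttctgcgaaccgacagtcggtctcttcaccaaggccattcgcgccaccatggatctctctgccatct
Srf (chr17:46556113-46556412, - strand): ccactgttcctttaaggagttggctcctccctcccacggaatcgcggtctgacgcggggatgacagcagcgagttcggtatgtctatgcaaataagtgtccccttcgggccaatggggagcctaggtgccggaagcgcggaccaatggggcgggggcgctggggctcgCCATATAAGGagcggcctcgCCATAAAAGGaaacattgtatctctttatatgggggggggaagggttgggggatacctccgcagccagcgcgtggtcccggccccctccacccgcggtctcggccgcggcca
*Zfp36* averaged 10.3 ± 2.25 CPM with cycloheximide and 2.18 ± 0.796 CPM without it (log2 change 2.27 ± 0.39; edgeR adjusted p = 1.23e-06), and *Srf* 166 ± 3.74 CPM with cycloheximide and 96.6 ± 2.90 CPM without it (0.78 ± 0.09; edgeR adjusted p = 7.14e-12).

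Negative regulators of MAP kinase signalling moved in both directions. Of 17 tested genes, 8 (47.1%) rose and 7 (41.2%) fell, with a median log2 change of -0.13. *Dusp8*, a phosphatase of the stress kinases JNK and p38, had 665, 739 and 654 CPM in the cycloheximide and PDGF libraries, against 148, 159 and 129 CPM in the PDGF libraries, without overlap and with a log2 change of 2.24 ± 0.07 (edgeR adjusted p = 3.38e-38). *Dusp10*, another such phosphatase, averaged 646 ± 24.8 CPM with cycloheximide and 184 ± 2.10 CPM without it (1.81 ± 0.07; edgeR adjusted p = 9.46e-36). *Socs3*, an inhibitor of cytokine receptor signalling, averaged 545 ± 26.7 CPM with cycloheximide and 225 ± 19.5 CPM without it (1.27 ± 0.07; edgeR adjusted p = 7.91e-27). Inhibitors that act on Ras and ERK were among those that fell. *Spred1* averaged 271 ± 5.63 CPM with cycloheximide and 599.6 ± 29.8 CPM without it (-1.15 ± 0.06; edgeR adjusted p = 2.49e-26), and *Spry4* 173 ± 14.2 CPM with cycloheximide and 392 ± 4.05 CPM without it (-1.18 ± 0.08; edgeR adjusted p = 4.87e-22). The other genes called lower were *Rasa1*, *Dusp5*, *Dusp4*, *Errfi1* and *Dusp6* (-0.45 to -1.53), of which *Errfi1* and *Dusp6* had 0% of their reads on protein-coding transcripts. The call of *Errfi1* was lost without PDGF replicate 1, and that of *Dusp6* in DESeq2 and without cycloheximide replicate 1 or 3 or PDGF replicate 2 or 3. *Spred2* (0.72), *Spry2* (0.42) and *Spred3* (0.39) rose, so neither the Spred nor the Sprouty family moved as one.

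Genes of the NF-κB feedback loop were mostly higher. Of 13 tested, 8 (61.5%) rose and 1 (7.69%) fell, with a median log2 change of 1.33. *Nfkbia*, which encodes the inhibitor IκBα, had 164, 185 and 175 CPM in the cycloheximide and PDGF libraries, against 35.3, 38.5 and 30.4 CPM in the PDGF libraries. No library of one group reached the other, and the log2 change was 2.34 ± 0.10 (edgeR adjusted p = 8.86e-31). *Rel*, an NF-κB subunit, averaged 1256 ± 81.2 CPM with cycloheximide and 325 ± 15.9 CPM without it (1.95 ± 0.06; edgeR adjusted p = 9.84e-39). *Zc3h12a*, the endoribonuclease regnase-1, averaged 126 ± 7.81 CPM with cycloheximide and 63.0 ± 8.28 CPM without it (0.99 ± 0.10; edgeR adjusted p = 2.48e-13). *Tnfaip3*, which encodes the deubiquitinase A20, rose by 2.53 with 19.2% of reads on protein-coding transcripts, and *Nfkb1* fell (-1.06) with 0%.

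Secreted factors were mixed, with more falls than rises. Of 25 tested cytokines, growth factors and related genes, 12 (48%) fell and 7 (28%) rose, with a median of -0.45; the share of rises was near the 21.0% of all tested genes. *Il1rl1*, the receptor of interleukin 33, had 2171, 2227 and 2145 CPM in the cycloheximide and PDGF libraries, against 5975, 5627 and 5739.7 CPM in the PDGF libraries (log2 change -1.41 ± 0.05; edgeR adjusted p = 9.39e-36). *Inhba*, an activin subunit, averaged 502 ± 7.06 CPM with cycloheximide and 1035 ± 36.8 CPM without it (-1.05 ± 0.06; edgeR adjusted p = 3.19e-25). Both stood lower in every cycloheximide library than in any PDGF library. *Stc1*, the glycoprotein hormone stanniocalcin 1, averaged 0.824 ± 0.438 CPM with cycloheximide and 11.9 ± 2.09 CPM without it (-3.86 ± 0.42; edgeR adjusted p = 2.12e-12), close to the 0.121 ± 0.210 CPM of cells without PDGF. In the other direction, the chemokine genes *Ccl7* (1.74), *Cxcl1* (1.91) and *Ccl2* (1.67) rose, as did *Edn1*, *Hbegf* and *Ptgs2* (1.05, 0.30 and 0.34). *Ptgs2*, the inducible cyclooxygenase, was among the most abundant of all genes that rose, at 14880.5 ± 838 CPM with cycloheximide and 11717 ± 319.8 CPM without it. *Cxcl1* had 0% and *Ccl2* 2.86% of reads on protein-coding transcripts, and *Ccl2* was not called without cycloheximide replicate 1.

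Genes induced later through AP-1 showed no common direction, with 3 (21.4%) of 14 tested higher and 6 (42.9%) lower (median -0.19). *Ccnd2*, a D-type cyclin, averaged 570.1 ± 40.6 CPM with cycloheximide and 1048 ± 27.7 CPM without it (-0.88 ± 0.06; edgeR adjusted p = 4.79e-21). The matrix protein gene *Tnc* (-1.36) and the hyaluronan synthase gene *Has2* (-0.80) fell, and *Cd44*, the hyaluronan receptor, rose (0.83; not called on protein-coding transcripts alone). *Fosl1* (1.44), an AP-1 subunit, also rose, on 6.10% protein-coding reads.

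Factors that remove messenger RNA with AU-rich elements formed a list with 11 (39.3%) of 28 tested genes higher and 3 (10.7%) lower, and a median of 0.06; scaling by library size gave 9 higher and 8 lower. *Tob1*, which recruits the CCR4-NOT deadenylase, had 600.0, 561 and 569.7 CPM in the cycloheximide and PDGF libraries, against 110.2, 129 and 115 CPM in the PDGF libraries (log2 change 2.29 ± 0.07; edgeR adjusted p = 3.52e-39). *Zfp36l1*, a relative of tristetraprolin, had 1306, 1233 and 1089 CPM in the cycloheximide and PDGF libraries, against 258, 272 and 267 CPM in the PDGF libraries (2.18 ± 0.08; edgeR adjusted p = 1.02e-18). The paralog *Zfp36l2* went the other way, with 1159.7, 1258 and 1179 CPM in the cycloheximide and PDGF libraries, against 2344, 2452 and 2389.9 CPM in the PDGF libraries (-1.0 ± 0.06; edgeR adjusted p = 1.21e-23). None of these 3 genes had overlapping groups. *Btg2*, an antiproliferative partner of the same deadenylase, averaged 14196 ± 1096 CPM with cycloheximide and 3213 ± 110.1 CPM without it (2.14 ± 0.12; edgeR adjusted p = 1.82e-08), and *Mex3b* and *Dcp2* fell (-1.37 and -0.42).

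Core histone genes had the largest median change of the lists described here. Replication-dependent histones are encoded by intronless genes in clusters, and their messenger RNAs end in a stem-loop instead of a poly(A) tail and are degraded when DNA synthesis stops; the libraries here were made from RNA captured on oligo-dT. Of 63 clustered core histone genes, 35 were tested and 34 rose, each at least 2-fold, against 9.43% of all tested genes. The median log2 change was 4.19, or 3.85 with the 2 genes that had no read in PDGF libraries set to their lower bound. *Hist4h4* averaged 2.32 ± 1.29 CPM with cycloheximide and 1.53 ± 0.141 CPM without it and was not called (0.56; edgeR adjusted p = 0.504). The list summed to 1249, 1317 and 1206 CPM in the cycloheximide and PDGF libraries, 109.6, 129.7 and 114 CPM in the PDGF libraries and 96.3, 100.3 and 95.4 CPM in the libraries without PDGF. Core and linker genes of the clusters together took 0.217%, 0.228% and 0.213% of counts with cycloheximide, against 0.0217%, 0.0247% and 0.0226% with PDGF alone.

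All 4 core classes were represented. *Hist1h2bc*, an H2B gene, had 297, 345 and 294 CPM in the cycloheximide and PDGF libraries, against 43.8, 52.7 and 48.3 CPM in the PDGF libraries (log2 change 2.69 ± 0.10; edgeR adjusted p = 1.11e-36). *Hist1h4i* (chr13:22040636-22041362, - strand), an H4 gene, had 264, 237 and 219.5 CPM in the cycloheximide and PDGF libraries, against 4.41, 7.49 and 6.01 CPM in the PDGF libraries, or 39.9-fold (5.32 ± 0.16; edgeR adjusted p = 1.45e-35). *Hist1h3d*, an H3 gene, had 81.1, 94.3 and 79.9 CPM in the cycloheximide and PDGF libraries, against 4.13, 6.20 and 7.87 CPM in the PDGF libraries (3.77 ± 0.19; edgeR adjusted p = 2.38e-27). The groups were apart in all 3. *Hist1h2ah*, an H2A gene, had 9.31, 9.83 and 12.5 CPM with cycloheximide and no read in any PDGF library, and was at least 43.7-fold higher against a floor of 3 reads over the PDGF group. Histone genes within a class have similar sequences, and the sources used here do not say how reads that fit several copies were treated, so the values of single copies are less certain than the sum.

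Linker histones followed, with 7 of 7 tested genes higher, 0 lower and a median of 3.51. *Hist1h1c* (chr13:23738808-23740367, + strand), which encodes histone H1.2, had 933, 988 and 909 CPM in the cycloheximide and PDGF libraries, against 89.5, 107 and 100.5 CPM in the PDGF libraries (3.25 ± 0.08; edgeR adjusted p = 4.56e-47). *H1f0*, a replacement linker histone with a polyadenylated message, had 1618, 1732 and 1563 CPM in the cycloheximide and PDGF libraries, against 457, 513 and 459 CPM in the PDGF libraries (1.78 ± 0.06; edgeR adjusted p = 2.61e-32). In each gene the cycloheximide libraries all lay above the PDGF libraries. *Hist1h1a* had 288 reads with cycloheximide and 1 with PDGF alone, a ratio of 253 with an exact 95% counting interval of 45.1 to 10000.0. *Hist1h1b* averaged 58.1 ± 3.35 CPM with cycloheximide and 1.60 ± 0.585 CPM without it (5.21 ± 0.27; edgeR adjusted p = 7.91e-27).

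Histone variants and the genes that process and carry histones were mixed, with 6 (42.9%) of 14 tested higher and 4 (28.6%) lower (median 0.45). *H2afx*, the H2A variant phosphorylated at DNA breaks, had 119.8, 139 and 129 CPM in the cycloheximide and PDGF libraries, against 25.3, 25.6 and 22.8 CPM in the PDGF libraries (2.40 ± 0.12; edgeR adjusted p = 5.42e-29). *Slbp*, which encodes the protein that binds the histone stem-loop, averaged 7.05 ± 0.710 CPM with cycloheximide and 2.68 ± 1.64 CPM without it (1.33; 30.6% protein-coding reads, and not called on those alone), and the histone chaperone gene *Nasp* 39.1 ± 4.84 CPM with cycloheximide and 24.5 ± 2.79 CPM without it (0.67). *Lsm11*, part of the U7 particle that cuts histone pre-mRNA, fell (-0.65), as did *H2afj*, *H2afy* and *Eri1* (-0.46, -0.77 and -0.25), of which *H2afy* had 39.1% protein-coding reads. The calls of these 4 were lost without the filter on low counts. They were lost too without cycloheximide replicate 1 or 3 (*H2afj*, *H2afy*, *Lsm11*), cycloheximide replicate 2 or 3 (*Eri1*), PDGF replicate 1 (*H2afy*, *Lsm11*), PDGF replicate 2 (*Eri1*, *Lsm11*) or PDGF replicate 3 (*H2afj*, *H2afy*).

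**Figure D3:**
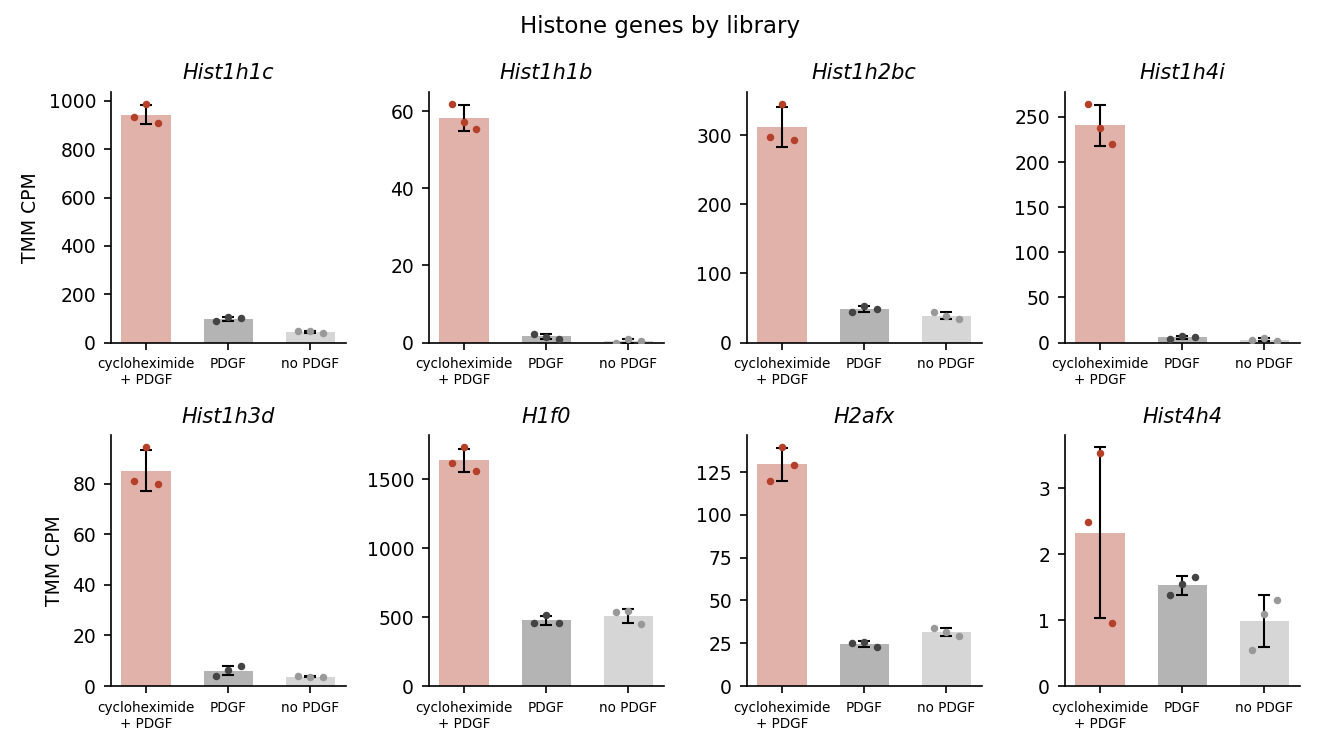
TMM CPM of 8 histone genes in each library (points; bars are means and whiskers SDs, n = 3) for cycloheximide and PDGF, PDGF alone and no PDGF; each panel has its own axis from 0. All genes but *Hist4h4* were called higher with cycloheximide and PDGF than with PDGF alone.

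Most genes of the amino acid response fell. ATF4 is a transcription factor whose own translation rises when amino acids are short or mTORC1 is active, and it drives genes of amino acid uptake, amino acid synthesis and tRNA charging. Of 40 listed genes, 35 were tested, 29 fell (82.9%, against 19.6% of all tested genes) and 1 rose, with a median log2 change of -1.27. Summed over the list, the level was 5627, 6222 and 6066 CPM with cycloheximide and PDGF, 11831, 12097 and 11839 CPM with PDGF alone and 6226, 6522 and 6242 CPM without PDGF. The tested genes had a median of 98.1% of their reads on protein-coding transcripts.

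Amino acid transporters had the smallest adjusted p-values of the list. *Slc7a1* (chr5:148327410-148399904, - strand), the transporter of cationic amino acids, had 471, 551 and 539 CPM in the cycloheximide and PDGF libraries, against 2244, 2167 and 2135 CPM in the PDGF libraries, a log2 change of -2.07 ± 0.06 (edgeR adjusted p = 9.88e-42). *Slc7a5*, which carries large neutral amino acids such as leucine, had 635, 657 and 691 CPM in the cycloheximide and PDGF libraries, against 1976, 1903 and 1948 CPM in the PDGF libraries (-1.56 ± 0.06; edgeR adjusted p = 4.31e-36). *Slc7a11* (chr3:49892526-50443614, - strand), which exchanges cystine for glutamate, had 28.3, 30.8 and 43.2 CPM in the cycloheximide and PDGF libraries, against 218, 185 and 189.9 CPM in the PDGF libraries (-2.52 ± 0.11; edgeR adjusted p = 7.56e-28). None of these groups overlapped. In cells without PDGF the 3 transporters averaged 643 ± 21.3, 778 ± 36.8 and 51.7 ± 3.57 CPM, in the same order.

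Among the regulators and enzymes, *Trib3*, a pseudokinase, had 312, 384 and 383 CPM in the cycloheximide and PDGF libraries, against 904, 967 and 989 CPM in the PDGF libraries (-1.41 ± 0.07; edgeR adjusted p = 5.92e-26). *Mthfd2*, an enzyme of mitochondrial folate metabolism, averaged 80.1 ± 9.19 CPM with cycloheximide and 193 ± 3.60 CPM without it (-1.27 ± 0.09; edgeR adjusted p = 3.8e-20). *Chac1*, which breaks down glutathione, averaged 197 ± 35.0 CPM with cycloheximide and 656 ± 37.2 CPM without it (-1.74 ± 0.12; edgeR adjusted p = 5.59e-09). All 3 stood lower in every cycloheximide library. *Aldh18a1*, which starts proline synthesis from glutamate, had no read in the cycloheximide libraries and 52 reads in the PDGF libraries, and was at least 19.7-fold lower. *Psph*, the last enzyme of serine synthesis, was another of the largest falls (-4.39 ± 0.62; 53% protein-coding reads).

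The exception that rose was *Ddit3*, the transcription factor CHOP, at 108 ± 12.9 CPM with cycloheximide and 72.2 ± 4.83 CPM without it (0.59 ± 0.12; edgeR adjusted p = 2.87e-05). It had 11.5% of its reads on protein-coding transcripts, and counted on those alone it was not higher (-0.11; edgeR adjusted p = 0.774). *Atf4* itself averaged 2.17 ± 0.471 CPM with cycloheximide and 3.00 ± 0.316 CPM without it and was not called (-0.45; edgeR adjusted p = 0.556), with 4.41% protein-coding reads.

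**Figure D4:**
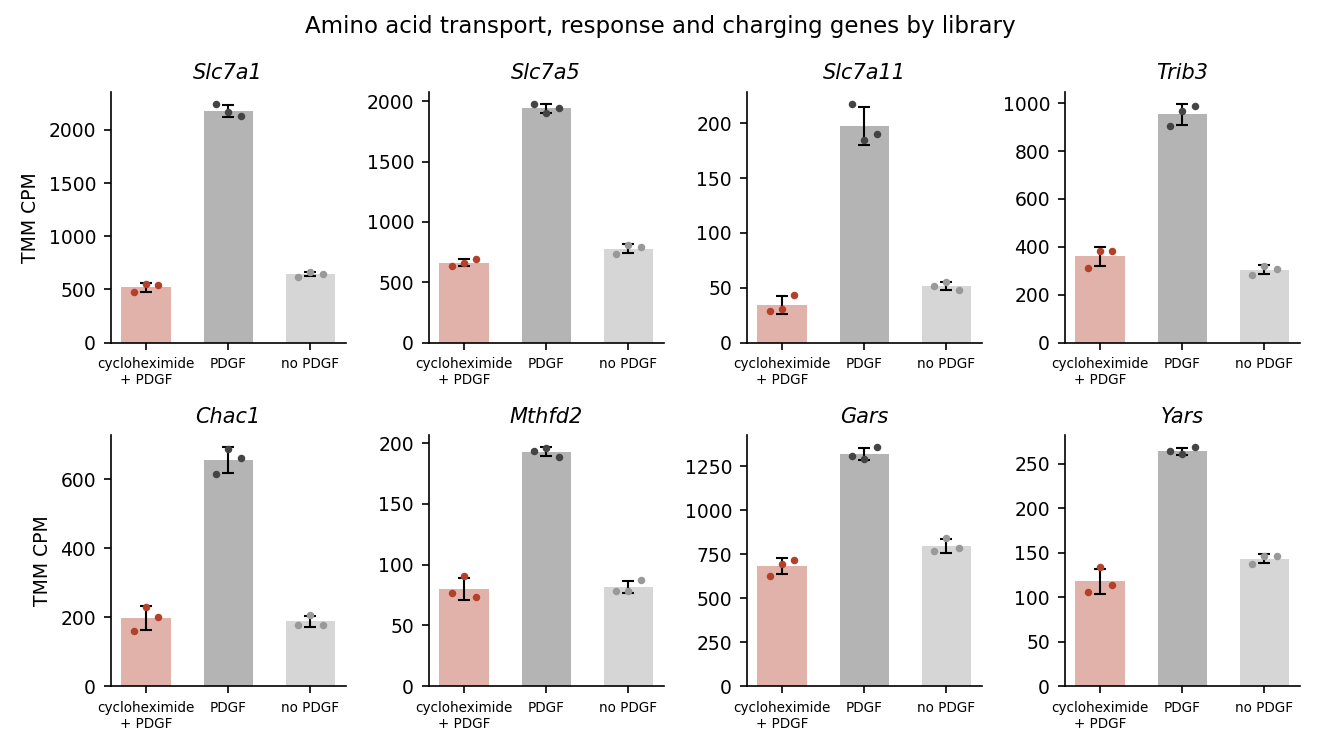
TMM CPM of 6 amino acid response genes and the tRNA synthetase genes *Gars* and *Yars* in each library (points; bars are means and whiskers SDs, n = 3) for cycloheximide and PDGF, PDGF alone and no PDGF; each panel has its own axis from 0. In all 8 genes the cycloheximide and PDGF libraries lie below the PDGF libraries.

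ATF4 binds a composite element with CHOP or C/EBP proteins, for which the motif TGATGNAA was searched on both strands. Of 29 tested genes of the list with a promoter window, 9 held it (31.0%), and so did 5 of 12 tRNA synthetase genes (41.7%), against 2.73% of the 6896 tested genes with a window and 3.97% of all windows. The windows of 3 genes that fell, and of the tyrosyl-tRNA synthetase gene *Yars*, are shown with the matches in capitals.
Slc7a11 (chr3:50443564-50443863, - strand): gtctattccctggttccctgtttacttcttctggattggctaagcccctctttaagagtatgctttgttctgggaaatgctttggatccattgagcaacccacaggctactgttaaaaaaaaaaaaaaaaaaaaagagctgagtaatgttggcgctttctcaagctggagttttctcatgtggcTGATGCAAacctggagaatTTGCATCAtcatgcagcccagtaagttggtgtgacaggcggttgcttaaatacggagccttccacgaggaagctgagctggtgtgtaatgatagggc
Chac1 (chr2:119350992-119351291, + strand): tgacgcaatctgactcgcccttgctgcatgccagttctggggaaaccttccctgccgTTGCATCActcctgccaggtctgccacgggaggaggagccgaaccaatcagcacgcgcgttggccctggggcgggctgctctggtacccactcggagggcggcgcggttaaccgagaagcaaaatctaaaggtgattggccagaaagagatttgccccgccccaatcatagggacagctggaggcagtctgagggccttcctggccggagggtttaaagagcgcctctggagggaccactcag
Trib3 (chr2:152344011-152344310, - strand): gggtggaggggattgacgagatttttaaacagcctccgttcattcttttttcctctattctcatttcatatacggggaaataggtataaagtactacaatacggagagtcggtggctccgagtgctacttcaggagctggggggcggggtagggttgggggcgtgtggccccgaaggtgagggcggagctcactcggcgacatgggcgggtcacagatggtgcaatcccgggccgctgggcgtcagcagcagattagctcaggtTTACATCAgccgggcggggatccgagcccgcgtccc
Yars (chr4:129189653-129189952, + strand): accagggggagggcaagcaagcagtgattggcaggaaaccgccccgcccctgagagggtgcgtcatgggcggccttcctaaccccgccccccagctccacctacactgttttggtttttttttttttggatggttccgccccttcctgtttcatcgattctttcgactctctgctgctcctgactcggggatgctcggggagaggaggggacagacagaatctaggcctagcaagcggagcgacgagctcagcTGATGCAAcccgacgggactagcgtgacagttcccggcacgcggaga
In *Slc7a11* the matches begin 66 and 47 bases before the start and face each other, in *Chac1* the match begins 193 bases before it, and in *Trib3* and *Yars* it lies past the start.

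Aminoacyl-tRNA synthetases, which charge tRNAs with their amino acids, also fell: 15 (75%) of 20 tested were called lower and 1 (5%) higher, with a median of -1.20. Here the counting matters, since the tested genes had a median of 27.2% of reads on protein-coding transcripts, and on those transcripts alone 9 of 11 tested fell. *Gars* (chr6:55038007-55079500, + strand), for glycine, had 628, 696 and 714 CPM in the cycloheximide and PDGF libraries, against 1305, 1292 and 1355 CPM in the PDGF libraries (-0.96 ± 0.06; edgeR adjusted p = 8.32e-24). *Yars*, for tyrosine, had 106, 134 and 114 CPM in the cycloheximide and PDGF libraries, against 264, 261 and 269 CPM in the PDGF libraries (-1.17 ± 0.08; edgeR adjusted p = 7.94e-21). With 99.7% and 89.8% protein-coding reads both were well covered, and neither gene's groups overlapped. *Tars*, for threonine, averaged 0.330 ± 0.297 CPM with cycloheximide and 25.0 ± 4.75 CPM without it (-6.02 ± 0.40; edgeR adjusted p = 1.76e-21), on 0% protein-coding reads. *Sars* (-2.13; 65.2%) and *Cars* (-2.99; 30.5%) fell as well, and *Dars*, for aspartate, rose by 0.23 (edgeR adjusted p = 0.0159). That call was lost under library-size scaling, on protein-coding transcripts alone, without the filter on low counts and without cycloheximide replicate 1 or 3 or PDGF replicate 1 or 3.

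The machinery that makes ribosomes was lower. Of 44 tested ribosome biogenesis genes, 32 (72.7%) fell and 2 (4.55%) rose, with a median of -0.56. *Rrs1*, an assembly factor of the large subunit, had 109.8, 147 and 124 CPM in the cycloheximide and PDGF libraries, against 356, 361 and 374 CPM in the PDGF libraries (-1.52 ± 0.08; edgeR adjusted p = 3.77e-27). *Ddx21*, a nucleolar RNA helicase, had 943, 982 and 951 CPM in the cycloheximide and PDGF libraries, against 1682, 1677 and 1684 CPM in the PDGF libraries (-0.81 ± 0.05; edgeR adjusted p = 5.11e-22). Both were lower in every cycloheximide library. *Heatr1* (-1.28) and *Npm1* (-1.13), the nucleolar protein nucleophosmin, also fell. *Gnl3* (-2.73), the GTPase nucleostemin, did so on 0% protein-coding reads. *Rrn3*, the initiation factor of RNA polymerase I, rose by 0.36 (edgeR adjusted p = 2.58e-06) and the helicase gene *Ddx56* by 0.26 (edgeR adjusted p = 0.0475). The call of *Ddx56* was lost in DESeq2, in limma, under library-size scaling and without any single library except cycloheximide replicate 1.

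Ribosomal protein genes showed 38 (69.1%) falls and 0 rises among 55 tested, and a median of -0.92, again on a median of 44.9% protein-coding reads. These genes have many processed pseudogenes, and reads shared with them are uncertain. *Rps3a1*, all of whose reads were on protein-coding transcripts, averaged 5499 ± 214 CPM with cycloheximide and 7228 ± 290.0 CPM without it (-0.39 ± 0.05; edgeR adjusted p = 1.79e-09), a fall smaller than that of the list's median. Larger falls, as in *Rpl10a* (-2.36) and *Rps18* (-1.70), were in genes with few protein-coding reads (0.224% and 0%, in that order). On protein-coding transcripts alone, 19 of 30 tested ribosomal protein genes fell.

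Among 47 tested translation factors, 23 (48.9%) fell and 1 (2.13%) rose (median -0.32). *Eif1a*, an initiation factor that helps choose the start codon, averaged 90.8 ± 3.11 CPM with cycloheximide and 186 ± 17.5 CPM without it (-1.03 ± 0.09; edgeR adjusted p = 1.16e-16). *Eif4b*, a cofactor of the cap-bound helicase, averaged 1221 ± 21.6 CPM with cycloheximide and 1730.1 ± 35.2 CPM without it (-0.50 ± 0.05; edgeR adjusted p = 7.48e-13), and *Eef2*, the factor that moves the ribosome along, 11133 ± 141 CPM with cycloheximide and 13719.6 ± 328 CPM without it (-0.30 ± 0.05; edgeR adjusted p = 2.41e-07). *Eif3j1*, a loosely bound subunit of initiation factor 3, rose, with 293 ± 9.47 CPM with cycloheximide and 172 ± 7.71 CPM without it (0.77 ± 0.07; edgeR adjusted p = 3.62e-15).

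Of 14 tested genes of the mitochondrial genome, 7 (50%) fell and 0 rose, with a median of -0.34. *mt-Co1*, a subunit of cytochrome c oxidase, had 27114, 25304 and 26487 CPM in the cycloheximide and PDGF libraries, against 30710.4, 32557 and 32166 CPM in the PDGF libraries (-0.27 ± 0.05; edgeR adjusted p = 3.84e-06). *mt-Nd1* (-0.40) and *mt-Cytb* (-0.38) fell by similar amounts. The ribosomal RNA genes *mt-Rnr1* (-0.13; edgeR adjusted p = 0.0668) and *mt-Rnr2* (-0.18; edgeR adjusted p = 0.129) were not called.

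Cholesterol synthesis genes, targets of the sterol-sensing factor SREBP-2, were higher: 13 (59.1%) of 22 tested rose and 1 (4.55%) fell, with a median of 0.45. *Insig1* (chr5:28071363-28078662, + strand), which holds SREBP in the endoplasmic reticulum when sterols suffice, had 2096, 2056 and 2068 CPM in the cycloheximide and PDGF libraries, against 484, 545 and 555 CPM in the PDGF libraries (1.97 ± 0.07; edgeR adjusted p = 1.89e-31). Its groups did not overlap. *Stard4*, a cholesterol carrier, rose by 1.26, and *Idi1*, an enzyme of the pathway, by 1.25. *Sqle*, another enzyme of the pathway, was not called (-0.29; edgeR adjusted p = 0.509), with 0% protein-coding reads.

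Fatty acid synthesis genes gave 4 (33.3%) rises and 4 (33.3%) falls among 12 tested. *Fasn*, fatty acid synthase, averaged 35.8 ± 5.26 CPM with cycloheximide and 18.5 ± 2.39 CPM without it (0.96 ± 0.17; edgeR adjusted p = 2.44e-06), and the elongase gene *Elovl5* 218 ± 4.78 CPM with cycloheximide and 404 ± 21.8 CPM without it (-0.89 ± 0.07; edgeR adjusted p = 7.42e-18).

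Heat shock genes gave 9 (50%) rises and 2 (11.1%) falls among 18 tested (median 0.25), but 6 and 6 under library-size scaling. The largest rise was that of *Dnajb1*, a co-chaperone, which had 227, 191 and 219 CPM in the cycloheximide and PDGF libraries, against 14.0, 20.2 and 15.7 CPM in the PDGF libraries (3.67 ± 0.14; edgeR adjusted p = 1.62e-27). *Hspa1b*, an intronless gene for HSP70, had 547, 583 and 526 CPM in the cycloheximide and PDGF libraries, against 129, 134 and 133 CPM in the PDGF libraries (2.06 ± 0.07; edgeR adjusted p = 8.29e-38). The groups were separate in both. *Bag3*, an HSP70 partner, averaged 903 ± 32.1 CPM with cycloheximide and 368 ± 14.3 CPM without it (1.29 ± 0.06; edgeR adjusted p = 5.93e-30). *Hspd1*, the mitochondrial chaperonin, fell (-0.51), and so did *Hsph1* (-0.66), which had 14.2% protein-coding reads and 0.30 on those alone (edgeR adjusted p = 0.718).

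The unfolded protein response of the endoplasmic reticulum showed 6 (28.6%) rises and 4 (19%) falls among 21 tested (median -0.05; 4 and 6 under library-size scaling), shares near the 21.0% and 19.6% of all tested genes. The stress sensor gene *Ern1* averaged 92.1 ± 8.03 CPM with cycloheximide and 149 ± 5.63 CPM without it (-0.70 ± 0.09; edgeR adjusted p = 6.6e-10). The sensor gene *Eif2ak3* went the other way, at 45.5 ± 10.4 CPM with cycloheximide and 21.4 ± 2.56 CPM without it (1.07 ± 0.17; edgeR adjusted p = 1.5e-07).

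Cell cycle genes gave medians near 0. Of 27 tested genes of the G1 to S transition, 6 (22.2%) rose and 3 (11.1%) fell (median 0.13), and under library-size scaling 2 rose and 6 fell. The rises were near the 21.0% of all tested genes and became 2 to 4 without 1 library, with 3 without cycloheximide replicate 1 or 3 or PDGF replicate 1 and 2 without PDGF replicate 3. Of 23 tested mitotic genes, 8 (34.8%) rose and 1 (4.35%) fell (median 0.21), or 4 and 2 under library-size scaling, and 5 rose without cycloheximide replicate 3 or PDGF replicate 1. *Mki67*, a proliferation marker, averaged 632 ± 17.6 CPM with cycloheximide and 668 ± 32.7 CPM without it and was not called (-0.08; edgeR adjusted p = 0.319). *Rrm2*, a subunit of ribonucleotide reductase that S phase cells make, averaged 8.30 ± 0.940 CPM with cycloheximide and 7.18 ± 0.473 CPM without it (0.20; edgeR adjusted p = 0.642), and *Ccne1*, cyclin E1, 6.81 ± 1.64 CPM with cycloheximide and 5.56 ± 2.18 CPM without it (0.28; edgeR adjusted p = 0.525). *Birc5*, the mitotic protein survivin, fell, at 0.957 ± 0.349 CPM with cycloheximide and 6.47 ± 3.58 CPM without it (-2.73 ± 0.50; edgeR adjusted p = 5.48e-06).

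Because nonsense-mediated decay needs translation, transcripts annotated as its targets were followed separately. Of 263 such transcripts tested one by one, 35 rose (13.3%) and 47 fell (17.9%), against 19.1% and 18.0% of all 13116 transcripts (37.1% called either way), and their median log2 change was -0.04. They took 0.205%, 0.193% and 0.209% of counts with cycloheximide, against 0.223%, 0.203% and 0.217% with PDGF alone. Relative to the other transcripts of the same gene, 4 of 189 rose and 7 fell, against 47 (0.892%) and 177 (3.36%) of 5267 transcripts tested for usage. Leaving out 1 library gave 26 to 39 rises and 97 to 136 falls of usage over all transcripts: rises were 26 without cycloheximide replicate 3, 29 without PDGF replicate 1 and 28 without PDGF replicate 3, and falls 111, 97 and 98 without cycloheximide replicate 1, 2 and 3 in that order and 100 without PDGF replicate 1. The 4 transcripts annotated for decay that rose are the following. *Ddx5-208*, of an RNA helicase gene, averaged 95.9 ± 3.71 CPM with cycloheximide and 26.5 ± 5.68 CPM without it, and made up 9.06%, 8.85% and 9.35% of its gene's reads, against 4.91%, 7.43% and 5.97%. *Bclaf1-210* made up 33.2%, 41.4% and 42.9%, against 14.6%, 21.9% and 20.4%, and *Khdrbs1-202*, of the RNA-binding protein SAM68, 9.92%, 6.39% and 8.19%, against 3.33%, 4.17% and 3.04%. *1700088E04Rik-204* made up 36.1%, 47.2% and 54.3%, against 10.3%, 15.8% and 12%. The shares of these 4 did not overlap between the groups (edgeR usage test, adjusted p = 0.00427 for *Ddx5-208*, 0.00264 for *Bclaf1-210*, 8.66e-05 for *Khdrbs1-202* and 0.00844 for *1700088E04Rik-204*). *Gpt2-202* fell, at 0.366%, 0.626% and 0.521% of its gene's reads with cycloheximide, against 3.22%, 2.54% and 3.03% (edgeR usage test, adjusted p = 0.00085). Other falls, as log2 change relative to the gene, were *Ice1-204* (-1.57), *Nktr-214* (-0.89), *Snd1-203* (-1.6), *Mmp14-203* (-2.85) and *Atl3-206* (-1.5).

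The factors of nonsense-mediated decay themselves gave 4 (30.8%) rises and 3 (23.1%) falls among 13 tested, and 2 rises under library-size scaling. *Upf2*, a core factor of the pathway, averaged 179 ± 21.5 CPM with cycloheximide and 109 ± 1.96 CPM without it (0.72 ± 0.08; edgeR adjusted p = 3.47e-11).

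Transcripts annotated with a retained intron were counted in the same way. Of 2852 tested, 225 rose (7.89%) and 745 fell (26.1%), with a median log2 change of -0.46, against 0.12 for 6937 protein-coding transcripts, of which 26.8% rose and 15.9% fell. Within genes, the usage of 125 of 2132 retained-intron transcripts fell (5.86%, against 3.36% of all 5267 transcripts tested for usage). That of 11 rose (0.516%, against 0.892%). *Snhg17-204*, singled out after its values were seen as the smallest adjusted p of the usage test, made up 3.83%, 4.64% and 2.24% of the reads of the snoRNA host gene *Snhg17* with cycloheximide, against 34.2%, 29.3% and 33.8% with PDGF alone (log2 change relative to its gene -3.21; edgeR usage test, adjusted p = 3.26e-17). Of 35 snoRNA genes tested, 17 fell (48.6%, against 19.6% of all tested genes) and 2 rose (5.71%, against 21.0%). The libraries were made from RNA captured on oligo-dT. Whether these reads came from snoRNAs or from the transcripts of their host genes was not tested. A list of host genes of small RNAs, joined by long noncoding RNAs, had 14 tested members, of which 6 (42.9%) fell and 0 rose. The long noncoding RNAs *Malat1*, *Neat1*, *Meg3*, *Kcnq1ot1* and *2900097C17Rik* were among the 8 not called. The falls included *Mir17hg*, the host of a microRNA cluster, at 5.83 ± 2.05 CPM with cycloheximide and 55.5 ± 5.71 CPM without it (-3.22 ± 0.20; edgeR adjusted p = 3.04e-21). *Snhg6* fell to 4.83 ± 1.33 CPM with cycloheximide, against 34.6 ± 6.77 CPM without it (-2.85 ± 0.23; edgeR adjusted p = 1.09e-17). *Malat1*, an abundant nuclear noncoding RNA, averaged 7607 ± 800.1 CPM with cycloheximide and 8078 ± 1346 CPM without it and was not called (-0.09; edgeR adjusted p = 0.739).

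**Figure D5:**
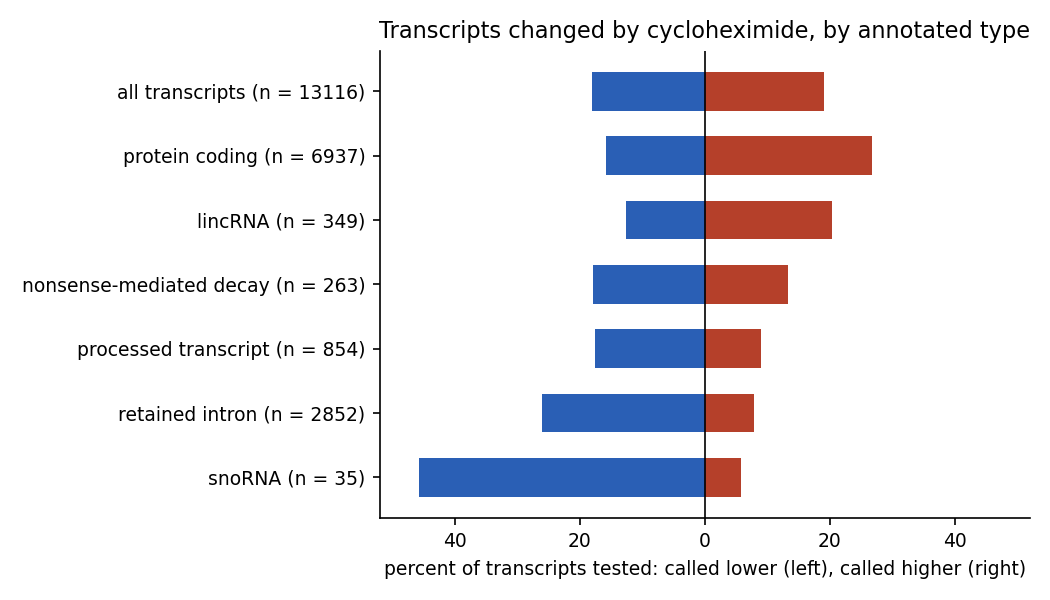
Percent of tested transcripts called higher (right, red) and lower (left, blue) with cycloheximide and PDGF against PDGF alone, by annotated transcript type, with the number tested. Retained-intron transcripts and snoRNAs lean to the left and protein-coding transcripts to the right.

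Calls were also counted by gene structure, with no test. Of 272 intronless protein-coding genes tested, 44.9% rose and 14.0% fell (median 0.38), against 22.5% and 21.1% of 8001 with introns (median 0.02). Without clustered histone genes the intronless set of 235 gave 36.6% and 16.2%. Protein-coding genes with most of their reads on protein-coding transcripts (6259) rose in 27.3% and fell in 18.9% of cases, and the 2013 with fewer rose in 10.7% and fell in 27.2%.

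Proteins that regulate splicing gave 11 (28.2%) rises and 4 (10.3%) falls among 39 tested (median 0.10), and 8 and 6 under library-size scaling. *Srsf6*, an SR protein gene, averaged 372 ± 3.78 CPM with cycloheximide and 254 ± 10.7 CPM without it (0.55 ± 0.07; edgeR adjusted p = 5.9e-11). *Tra2a* rose by 1.27 on 0% protein-coding reads. *Ptbp1*, the polypyrimidine tract binding protein, fell (-1.48; 33.8% protein-coding reads).

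Outside the lists, the largest rise was that of *Fcgr1* (chr3:96282909-96293969, - strand), an immunoglobulin receptor gene of leukocytes, at 45.8 ± 6.41 CPM with cycloheximide and 1.28 ± 0.653 CPM without it (5.20 ± 0.29; edgeR adjusted p = 9.89e-26). Among the largest falls, *Medag*, which promotes adipocyte formation, had no read with cycloheximide and 89 reads with PDGF alone, at least 33.7-fold lower. *Dlk1*, a Notch family protein of preadipocytes, is a member of the adipocyte list above. It fell to 1.45, 1.26 and 0.384 CPM in the cycloheximide and PDGF libraries, against 36.6, 33.1 and 41.0 CPM in the PDGF libraries (-5.17 ± 0.32, edgeR adjusted p = 5.75e-23). *Ptgs1*, the constitutive cyclooxygenase, averaged 1.92 ± 0.741 CPM with cycloheximide and 46.9 ± 2.87 CPM without it (-4.63 ± 0.24; edgeR adjusted p = 1.08e-26), and *Ostn*, a secreted peptide gene, 0.0689 ± 0.119 CPM with cycloheximide and 1.92 ± 0.593 CPM without it (-4.28 ± 1.00; edgeR adjusted p = 0.000315). The groups of *Dlk1*, *Ptgs1* and *Ostn* did not overlap, which the rule for naming the largest falls required. *Ptgs1* had 0.664% of its reads on protein-coding transcripts. *Poglut1*, *Ldha*, *Ugt1a6a*, *Pmm1*, *Zbtb18*, *G6pc3* and *Nle1* completed the 15 largest falls, with protein-coding read shares of 0%, 2.08%, 0%, 18.8%, 91.5%, 0% and 0% in that order.

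The H2A-TerminaTOR cells treated with cycloheximide and PDGF, a different line under the same agents, give levels to set beside these. *Fos* averaged 3997 ± 295 CPM there, *Jun* 56349.7 ± 1294 CPM, *Klf2* 630.3 ± 23.0 CPM, *Hist1h1c* 705 ± 62.6 CPM and *Slc7a1* 608 ± 50.4 CPM (SD, n = 3 each). In H2A-mCherry cells with cycloheximide and PDGF the same genes averaged 4859 ± 463, 62079 ± 1997, 1041 ± 62.8, 943 ± 40.1 and 521 ± 43.2 CPM. Core histones summed to 984, 996 and 851 CPM and amino acid response genes to 5552, 6019.8 and 6044 CPM in the H2A-TerminaTOR libraries. All these levels lay on the same side of the PDGF libraries as those of the H2A-mCherry cells.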

How the data were processed

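RNA captured with oligo-dT was sequenced from 15 libraries. The authors deposited whole-number read counts per mouse transcript, not normalized; per the submitters' processing notes the tools were HISAT2 2.2.1, HTSeq 0.9.1 and R 4.1.0. The notes name the build hg38, a human assembly, while the 142446 identifiers are mouse transcripts. Of these, 141536 matched the GENCODE M21 annotation of GRCm38, and the 910 others held 0.0309% of counts and were dropped. Whether the kit marked strand is unknown from these sources, so a gene and its antisense partner cannot be told apart. HTSeq by default counts a read only where it fits a single feature, so that shared reads of overlapping transcripts are lost; these sources do not give the settings used.

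Counts were summed per gene, filtered with filterByExpr, scaled by TMM and fitted with edgeR 4.0.16 in R 4.3.3 (quasi-likelihood test over all 15 libraries in 5 groups, 10 residual degrees of freedom, Benjamini-Hochberg over 10603 genes). Transcripts were tested likewise, and their usage within a gene with diffSpliceDGE. The scripts were tested on simulated data. Alternatives were DESeq2 1.42.0, limma 3.58.1 (voom), other scalings and filters, a replicate block and leaving out each library. Counting intervals and floors (3 reads per group) cover counting error only. Promoter windows are RefSeq's.

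Genes were named by rule: the 15 largest rises and falls among genes whose groups did not overlap and whose mean log2 CPM reached 1, the 5 most abundant each way, up to 5 called members per list by adjusted p, and members against their list's majority. *Egr1*, *Zfp36*, *Srf*, *Chac1*, *Spred2*, *Spred3* and *Spry2* were added after their values were seen. The comparison and the gene lists were chosen with earlier results of these data known. Some listed genes are not reported here by name.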

Additional observations from a re-analysis of the deposited data

How the results depend on the processing

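Most counts stayed within 1.5 times under the alternatives run (540 of 580 values of counts, over all settings). Counting only protein-coding transcripts gave 1484 genes higher, 580 of them and 386 lower genes by at least 2-fold. It gave 9 synthetase falls, 19 ribosomal protein falls, 5 splicing regulator rises, 4 mitotic rises, 2 G1 to S rises and 4 glycolysis falls. Fewer genes are tested there by construction, and none of the list of host genes and long noncoding RNAs, whose falls could not be called. In that count *Ddit3* (-0.11), *Hsph1* (0.30) and *Cdk4* (0.04) changed sign. Keeping only genes with most reads on protein-coding transcripts, an alternative chosen after seeing the data, left 1180 lower genes, 638 higher and 307 lower by at least 2-fold. It left 5 NF-κB rises, 7 synthetase falls, 16 ribosomal protein falls, 9 lysosome falls, 7 splicing rises and 3 glycolysis falls. Tested genes of the host and long noncoding RNA list had no protein-coding reads, so this alternative kept none of them. Leaving out mitochondrial and histone genes removed the genes themselves, so core histone rises became 0, linker histone rises 2 and mitochondrial falls 0. Library-size scaling gave 2 rises of decay factors, 4 mitotic and 2 G1 to S rises, and dropping the low-count filter 3 G1 to S rises. Leaving out 1 library at a time gave 26 to 39 transcripts higher and 97 to 136 lower in usage, against 47 and 177 with all libraries (26 without cycloheximide replicate 3, 97 without cycloheximide replicate 2), 5 to 9 mitotic rises and 2 to 4 G1 to S rises. The cause of these shifts was not tested. Deviations of same-numbered libraries from their group means correlated little (r = 0.076, 0.0538 and -0.00149). With 3 libraries per group this cannot decide whether the numbers mark a shared culture or day, and the labels do not say. A replicate block gave 2243 genes higher and 2089 lower. Of the named genes under each setting, 3390 of 3486 values kept direction and call, 93 kept direction but lost the call, and 3 reversed. Genes with few counted reads, such as *Egr1* and *Atf4*, give imprecise values. Whether depth or the counting per transcript left them with few reads was not tested.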

Other observations

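Further gene lists outside the comparisons above moved in part; percents of tested members called stand against 21.0% higher and 19.6% lower over all tested genes. Of 19 tested targets and members of the FOXO transcription factors, which growth factor signalling holds out of the nucleus, 10 (52.6%) rose and 4 (21.1%) fell (median 0.34), or 8 and 5 under library-size scaling. *Foxo3* itself had 2008, 1930.0 and 1896 CPM in the cycloheximide and PDGF libraries, against 325, 318 and 294 CPM in the PDGF libraries, a log2 change of 2.64 ± 0.06 (edgeR adjusted p = 3.09e-48) without overlap. *Irs2*, an adaptor of the insulin receptor, averaged 934 ± 14.7 CPM with cycloheximide and 543 ± 32.5 CPM without it (0.78 ± 0.06; edgeR adjusted p = 5.74e-19), and *Gadd45a* fell (-1.48). In the TGFβ and BMP list, 9 (39.1%) of 23 rose and 8 (34.8%) fell, or 8 and 10 under library-size scaling. *Id4*, an inhibitor of helix-loop-helix factors, had 58.9, 47.9 and 56.5 CPM in the cycloheximide and PDGF libraries, against 3.30, 3.36 and 4.56 CPM in the PDGF libraries (3.83 ± 0.21; edgeR adjusted p = 1.04e-25). *Smad7*, an inhibitory SMAD, averaged 135 ± 7.03 CPM with cycloheximide and 60.1 ± 3.37 CPM without it (1.16 ± 0.11; edgeR adjusted p = 2.13e-14). The signal transducer *Smad3* (-0.98 ± 0.06; edgeR adjusted p = 8.28e-24) and the ligand *Tgfb1* (-0.96 ± 0.10; edgeR adjusted p = 1.45e-13) fell.

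Of 12 tested regulators of apoptosis, 6 (50%) rose and 2 (16.7%) fell, or 5 and 2 under library-size scaling. *Mcl1*, a short-lived survival protein, averaged 2353 ± 143 CPM with cycloheximide and 1462 ± 41.0 CPM without it (0.69 ± 0.06; edgeR adjusted p = 1.2e-16), and *Bax*, a pore former of mitochondria, 5.43 ± 1.17 CPM with cycloheximide and 15.4 ± 2.13 CPM without it (-1.49 ± 0.26; edgeR adjusted p = 1.83e-06). The other rises were *Bmf* (2.43), *Birc2* (2.03, on 0% protein-coding reads), *Birc3* (1.33), *Bcl2l11* (0.69) and *Cflar* (0.21). The other fall was *Birc5* (-2.73). Of 16 tested glycolysis genes, 8 (50%) fell and 3 (18.8%) rose. *Slc16a1*, a lactate transporter, had 295, 322 and 344 CPM in the cycloheximide and PDGF libraries, against 1129, 1095 and 1112 CPM in the PDGF libraries (-1.79 ± 0.06; edgeR adjusted p = 6.18e-37), and *Hk2*, a hexokinase, averaged 99.1 ± 11.7 CPM with cycloheximide and 201 ± 5.97 CPM without it (-1.02 ± 0.09; edgeR adjusted p = 8.7e-15). *Slc2a1*, a glucose transporter, rose (1.14; edgeR adjusted p = 9.25e-07). Lysosome and autophagy genes gave 14 (37.8%) falls and 3 (8.11%) rises among 37 tested, with the protease gene *Ctsb* at 905 ± 59.4 CPM with cycloheximide and 1273 ± 53.7 CPM without it (-0.49 ± 0.06; edgeR adjusted p = 1.5e-11) and the autophagy kinase gene *Ulk1* at 156 ± 7.61 CPM with cycloheximide and 95.5 ± 8.09 CPM without it (0.71 ± 0.09; edgeR adjusted p = 1.98e-10). Extracellular matrix genes gave 16 (59.3%) falls and 2 (7.41%) rises among 27 tested, with *Fn1*, fibronectin, at 211 ± 21.7 CPM with cycloheximide and 501 ± 64.3 CPM without it (-1.25 ± 0.10; edgeR adjusted p = 2.2e-10; 27.2% protein-coding reads) and *Col1a1*, a collagen chain, at 4244 ± 199 CPM with cycloheximide and 3683 ± 122 CPM without it (0.20 ± 0.05; edgeR adjusted p = 0.000809), a call lost under library-size scaling and on protein-coding transcripts alone.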
